A study of Mus musculus with 7 samples.

Results

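Calb1, Calb2, Pvalb, Necab1, Necab2, Pcp4 and Hpca, 7 of the 55536 genes in the count tables, encode small calcium-binding or calmodulin-binding proteins that neuroanatomists use to tell hippocampal neurons apart. They were matched on gene name, and their transcripts were summed over the nuclei of each neuronal class in each well of the barcoding plate. Single nuclei from the mouse hippocampus were profiled at 10 months of age by combinatorial barcoding, in which the first barcode marks the well and so the mouse. The wells belonged to 4 groups, Arc-veh and WT-veh on water and Arc-PMX and WT-PMX on the drug PMX205, with 3 females and 3 males per group, and each of the 24 wells held nuclei from the hippocampus of 1 hemisphere of a mouse. Arc mice were hemizygous for the Arctic48 transgene, a human APP gene with the Swedish, Indiana and Arctic mutations on a C57BL6/J background, and WT mice carried no transgene. PMX205, a cyclic peptide that blocks the complement receptor C5aR1, was given to the PMX groups at 20 µg/ml in drinking water, and the veh groups drank water alone. The labels give 12 weeks of treatment, and the ages in the study's text make it somewhat shorter. The labels name actinomycin D and triptolide in the perfusion fluid of all mice, WT included, whereas the study's methods name such inhibitors only for the microglia preparation. The promoter of the transgene was not given in the sources used here. The study left out a WT sample whose expression was that of an Arctic mouse, without naming it, and all wells were kept here.

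Calcium entering a neuron through its channels and receptors is caught within milliseconds by mobile buffers, and it is read by sensors that change shape when they bind it. Buffers and most sensors hold calcium in EF-hand loops. Calbindin, calretinin and parvalbumin mark separate populations of interneurons, and calbindin also fills the granule cells of the dentate gyrus, where its loss is known from other mice that overexpress human APP. Calbindin is encoded by Calb1, calretinin by Calb2 and parvalbumin by Pvalb. Necab1 and Necab2 encode neuronal proteins with an N-terminal EF-hand region. Pcp4 encodes PEP-19, a peptide without an EF-hand that binds calmodulin through an IQ motif and speeds its exchange of calcium. Hpca encodes hippocalcin, a sensor that moves to membranes when calcium rises.

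In the GENCODE vM21 annotation of GRCm38, the mm10 assembly, 3 of the members lie on chromosome 4. Calb1 spans chr4:15881264-15908064 on the plus strand, and Necab1, the longest of the 7, spans chr4:14952245-15149794 on the minus strand. Hpca spans chr4:129111570-129122036 on the minus strand. Calb2 is at chr8:110137502-110168210 on the minus strand and Necab2 at chr8:119446719-119472640 on the plus strand. Pvalb is at chr15:78191114-78206400 on the minus strand and Pcp4 at chr16:96467606-96525793 on the plus strand.

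The start regions of 3 members are printed because their levels differed in kind. Pvalb was read in a single class of interneurons. Pcp4 was read in granule, CA2, deep-layer and some inhibitory nuclei but hardly in CA1, and Necab2 in CA2, mossy and some inhibitory nuclei. RefSeq promoter windows of GRCm38.p6, from 250 bases before to 50 bases after the transcript start, matched 4 of the 7 members, Hpca, Necab2, Pvalb and Pcp4. The windows are chr15:78206351-78206650 on the minus strand for Pvalb, chr16:96467356-96467655 on the plus strand for Pcp4 and chr8:119446469-119446768 on the plus strand for Necab2. Of the 2 Pvalb windows in the table the one with the start farther upstream is shown, and the other is chr15:78204188-78204487. Both strands were searched for 4 letter strings, which capitals mark where found. They were the TATA box, spelled TATAAA, and the GC box, which reads GGGCGG. Also searched were the CCAAT box, named by its letters, and the cyclic AMP response element, which reads TGACGTCA.
Pvalb: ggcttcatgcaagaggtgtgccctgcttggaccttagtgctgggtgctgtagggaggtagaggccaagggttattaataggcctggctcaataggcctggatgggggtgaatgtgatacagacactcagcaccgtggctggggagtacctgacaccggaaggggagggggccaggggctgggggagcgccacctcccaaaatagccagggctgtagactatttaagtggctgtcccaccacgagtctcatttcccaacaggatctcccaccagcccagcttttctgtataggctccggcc
Pcp4: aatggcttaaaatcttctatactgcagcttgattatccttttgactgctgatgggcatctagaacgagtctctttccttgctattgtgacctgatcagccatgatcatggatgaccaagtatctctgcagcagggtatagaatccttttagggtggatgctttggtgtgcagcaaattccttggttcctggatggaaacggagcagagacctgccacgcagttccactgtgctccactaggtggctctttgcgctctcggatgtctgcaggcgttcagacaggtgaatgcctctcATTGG
Necab2: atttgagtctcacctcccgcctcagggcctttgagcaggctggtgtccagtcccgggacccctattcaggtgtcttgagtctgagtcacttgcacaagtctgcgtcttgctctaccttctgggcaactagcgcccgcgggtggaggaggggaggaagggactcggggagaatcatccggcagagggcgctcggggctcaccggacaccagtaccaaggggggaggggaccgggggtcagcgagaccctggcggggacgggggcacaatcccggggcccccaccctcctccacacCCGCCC
Neither Pvalb window held any of the 4 letter strings. The Pcp4 window held 1 CCAAT box read on the opposite strand, and the Necab2 window held 1 GC box read on the opposite strand. Both matches were the last bases of their window, after the transcript start and not before it. No matches overlapped. Of 32851 RefSeq promoter windows of the same length, 13.6% held the TATA box, 35.7% the GC box, 37.4% the CCAAT box and 1.79% the cyclic AMP response element, so the matches found were of common kinds.

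In all, 45138 nuclei passed the filters, 1253 were scored as doublets and 43885 were clustered without the members. Clusters were named granule-like, CA1-like, CA3-like and interneuron-like from their markers, and these names are shortened below to granule (8597 nuclei), CA1 (4940), CA3 (1408) and interneuron nuclei (2661). Mossy-like, CA2-like and other neuronal clusters are shortened likewise, and interneurons were split by whether their clusters expressed Lhx6 or Adarb2. The mossy name is less secure than most. The mean marker score of that cluster was higher for CA3, at 0.773, than for mossy, at 0.729. It was named mossy because the mossy marker Csf2rb2 was among its leading genes. Cluster 24, of 581 nuclei, was placed with the subicular and other Slc17a6 nuclei in the same way, through Tshz2. Its score was 0.561 for that class and 0.659 for deep-layer or entorhinal excitatory nuclei. The names of cluster 13, in the Slc17a6 class, and of CA1 cluster 21 also needed leading genes to settle close scores. Of the markers listed for each class, 7 of 7 were higher in granule nuclei than in the rest, 6 of 6 in CA1, 5 of 6 in CA3 and 5 of 5 in interneurons. The CA3 exception was Coch. The same markers had named the clusters, so these counts are no separate support for the names. A well contributed 151 to 602 granule nuclei, 82 to 332 CA1 nuclei, 26 to 110 CA3 nuclei and 64 to 167 interneurons. Depth was not even over the groups: the median granule nucleus held 4923 transcripts in WT-veh, 5414 in WT-PMX, 8703 in Arc-veh and 7067 in Arc-PMX. Levels are given as CPM, the usual depth-scaled count, in which the transcripts of all genes in the nuclei of 1 class and well are scaled to the same fixed total. App in the neurons of the 12 Arc wells ranged from 532 to 797 CPM (median 635), against 442 to 557 (median 484) in the 12 WT wells, so the ranges overlapped at their ends. Nuclei named astrocytes, oligodendrocytes or their precursors made up 15.6% of WT-veh well F3 and 20.7% of WT-veh well M3. They made up 16.5% to 30.7% of the other 22 wells. Microglia are not in these shares, because the cluster of 1520 nuclei with microglial markers stayed unnamed. The fits were repeated without both wells because earlier results of these data had put their glial shares low. In the shares without microglia this held for F3 but not for M3. Across the 7 sublibraries of the pool, 4080 barcodes were found in more than 1 sublibrary and were treated as separate nuclei.

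Levels were not divided by gene length, so they are compared between classes and groups but not between members. Neighbouring classes in the order of a member's levels had ranges over wells that overlapped in every case except 1, the first step of the Pvalb order.

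**Figure D1:**
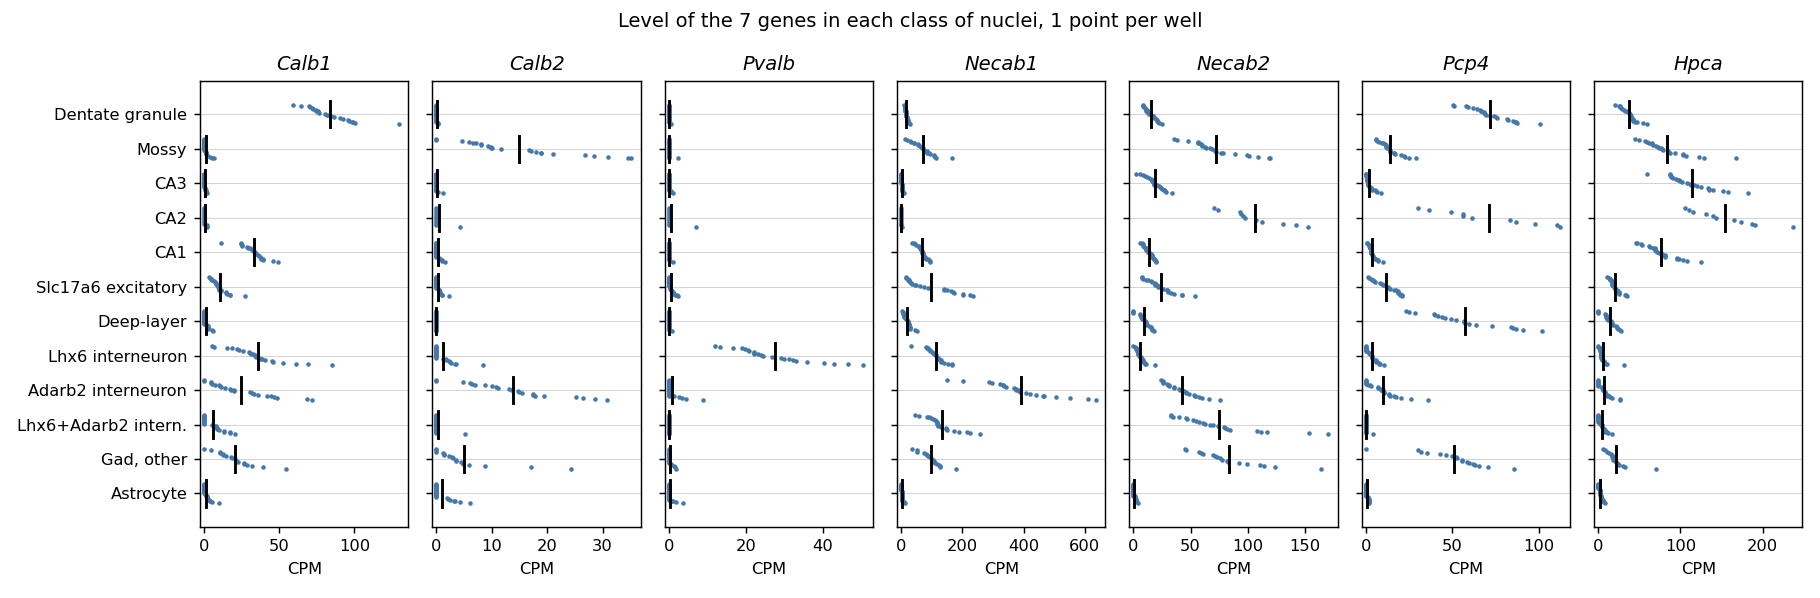
Each panel shows 1 member, with a point per well (CPM, linear axis) for each class of nuclei and a black bar for the mean over wells. Calb1 is highest in granule nuclei (mean 83.5 CPM), Pvalb is seen in Lhx6 interneurons (27.4 CPM), and Hpca is highest in CA2 nuclei (154 CPM).

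Calb1 was read most in granule nuclei, at 83.5 ± 15.1 CPM (SD, n = 24 wells, range 59.2 to 129). The Lhx6 interneurons, a cluster that expresses the transcription factor of medial ganglionic eminence lineages, came next at 35.6 ± 18.3 CPM, followed by CA1 nuclei at 33.0 ± 7.74 CPM and Adarb2 interneurons, of the caudal eminence, at 24.8 ± 20.5 CPM. Inhibitory nuclei without Lhx6 or Adarb2 had 20.8 ± 12.8 CPM, subicular and other Slc17a6 excitatory nuclei 10.3 ± 5.41, the cluster with both Lhx6 and Adarb2 5.88 ± 6.74 and deep-layer or entorhinal excitatory nuclei 1.08 ± 1.77. Mossy, CA2 and CA3 nuclei had almost none, at 1.04, 0.391 and 0.322 CPM. The granule and CA3 ranges, 59.2 to 129 and 0 to 1.81 CPM, lay far apart, and CA1 separated from CA3 as cleanly, with 10.96 CPM in its lowest well.

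By the mean over wells, Calb2 was highest in mossy nuclei among the classes present in all wells. By the median over wells the order was opposite, at 10.9 CPM in mossy nuclei and 13.7 in Adarb2 interneurons. Mossy-like nuclei, named for the excitatory cells of the hilus, had 14.9 ± 10.3 CPM and Adarb2 interneurons 13.9 ± 8.21 CPM. Their ranges of 0 to 35.1 and 0 to 30.7 CPM overlapped in full. Cajal-Retzius nuclei had 52.5 CPM, but only 2 wells held 10 or more of them, 1 of these at 0. In granule nuclei 3 Calb2 transcripts were counted among 61839747, a pooled level of 0.0485 CPM. Inhibitory nuclei without Lhx6 or Adarb2 had 4.96 ± 6.26 CPM and Lhx6 interneurons 1.13 ± 1.98, and the remaining neuronal classes averaged under 1 CPM. Oligodendrocyte precursors also held Calb2, at 8.17 CPM over their pooled nuclei, where astrocytes held 0.577.

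Pvalb was read in Lhx6 interneurons at 27.4 ± 10.1 CPM (n = 24 wells, range 12.0 to 50.5). The next class, Adarb2 interneurons, had 0.878 ± 2.13 CPM with 8.97 in its highest well, below the lowest Lhx6 well. All other neuronal classes averaged under 1 CPM.

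The buffers also divided the interneurons internally. Of the Lhx6 nuclei with a transcript of Sst, the peptide somatostatin, 6.67% of 210 held Pvalb, against 18.8% of the 1129 without Sst. For Calb1 the order was opposite, 32.9% with Sst against 17.6% without. The nuclei with Sst were the deeper ones, with a median of 12250 against 8584 transcripts, and shares depend on depth. By CPM over the pooled nuclei, which is scaled for depth, Pvalb was at 5.82 with Sst and 29.4 without. Calb1 was at 49.8 CPM with Sst and 35.2 without. Of the Adarb2 nuclei with a transcript of Vip, vasoactive intestinal peptide, 27.9% of 140 held Calb2 against 3.92% of the 714 without Vip. Calb1 was held by 1.43% and 8.82% of the same nuclei. These shares and levels describe pooled nuclei and carry no test.

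Necab1 was highest, among the classes, in Adarb2 interneurons. Adarb2 interneurons had 391 ± 113 CPM (range 150 to 636), nuclei of the cluster with both Lhx6 and Adarb2 had 133 ± 51.2 and Lhx6 interneurons 113 ± 29.3. Inhibitory nuclei without Lhx6 or Adarb2, at 97.8 ± 33.4, and subicular and other Slc17a6 excitatory nuclei, at 97.6 ± 76.3, came next. Within the latter, excitatory cluster 13 stood at 258 ± 101 CPM, above the Lhx6 interneurons. Mossy nuclei followed at 73.0 ± 34.7 and CA1 nuclei at 68.7 ± 15.6 CPM, whereas deep-layer or entorhinal excitatory nuclei had 20.4 ± 12.5, granule nuclei 17.6 ± 4.86, CA3 nuclei 1.77 ± 2.03 and CA2 nuclei 0.393 CPM. A Necab1 transcript was held by 61.4% of Adarb2 nuclei with Vip and 58.5% of those without it. The pooled level of Necab1 ran the other way, at 337 CPM with Vip and 448 without, and neither difference was tested.

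Necab2 followed another map. CA2 nuclei had 106 ± 26.4 CPM (n = 11 wells), inhibitory nuclei without Lhx6 or Adarb2 had 83.5 ± 30.2, the cluster with both Lhx6 and Adarb2 had 74.6 ± 36.6 and mossy nuclei 72.3 ± 23.0. Adarb2 interneurons had 42.6 ± 13.9 CPM but Lhx6 interneurons only 6.01 ± 4.09, and their ranges, 24.4 to 75.6 and 0 to 19.1, did not overlap. Subicular and other Slc17a6 excitatory nuclei stood at 24.0 CPM, CA3, granule and CA1 nuclei at 18.6, 15.3 and 13.4, and deep-layer or entorhinal excitatory nuclei at 9.39. CA2 nuclei thus had the highest Necab2 level of the classes and the lowest Necab1 level.

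Pcp4, which speeds the calcium exchange of calmodulin, stood at 72.1 ± 12.3 CPM in granule nuclei and 71.1 ± 28.8 CPM in CA2 nuclei. Cajal-Retzius nuclei were higher at 123 CPM, from 2 wells only. Deep-layer or entorhinal excitatory nuclei had 57.5 ± 22.5 CPM and inhibitory nuclei without Lhx6 or Adarb2 had 51.1 ± 18.7. Mossy nuclei had 14.2 ± 6.01, CA1 nuclei 3.70 ± 2.16 and CA3 nuclei 2.15 ± 2.36 CPM, and granule nuclei (lowest well 50.6) and CA1 nuclei (highest well 9.84) were fully apart. Subicular and other Slc17a6 excitatory nuclei had 11.9 ± 6.63 CPM, Adarb2 interneurons 9.88 ± 9.01, Lhx6 interneurons 3.46 ± 3.11 and the cluster with both Lhx6 and Adarb2 0.190.

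Hpca, the hippocalcin gene, was highest in CA and mossy nuclei. CA2 nuclei had 154 ± 40.4 CPM, CA3 nuclei 114 ± 27.6, mossy nuclei 83.5 ± 27.8, CA1 nuclei 76.7 ± 19.8 and granule nuclei 37.5 ± 9.18. Inhibitory nuclei without Lhx6 or Adarb2 had 21.6 ± 13.98 CPM, subicular and other Slc17a6 excitatory nuclei 20.6 ± 6.24 and deep-layer or entorhinal excitatory nuclei 14.3 ± 8.45. Lhx6 and Adarb2 interneurons stood at 5.55 and 7.49 CPM, and the cluster with both at 4.37. In the 2 wells of Cajal-Retzius nuclei Hpca averaged 22.1 and Necab1 26.3 CPM, while Calb1, Pvalb and Necab2 were at 0. The granule range of 20.1 to 59.5 CPM overlapped that of CA1, 45.5 to 125.

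Granule nuclei fell into 2 clusters, numbered 0 (4738 nuclei) and 1 (3859). Calb1 was at 67.1 CPM over the pooled nuclei of cluster 0 and at 96.5 over those of cluster 1, Necab1 at 8.61 and 22.9, and Necab2 at 8.70 and 18.1. Pcp4 was level between them, at 69.6 and 68.1 CPM. Cluster 1 held the deeper nuclei in every group, and the median well had 25.6% of its granule nuclei there in WT-veh, 29.9% in WT-PMX, 69.5% in Arc-veh and 60.5% in Arc-PMX. The wells overlapped, with 20.8% to 52.8% in WT-veh, 20.6% to 60.7% in WT-PMX, 31.2% to 81.5% in Arc-veh and 25.2% to 75.1% in Arc-PMX. These medians were higher in the Arc groups, which were also the deeper ones, and genotype and depth cannot be told apart here. The part of this split in the group values below was not tested beyond the fits made within each cluster.

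The 3 CA1 clusters differed as well. Hpca was at 112 CPM in cluster 4, 45.6 in cluster 9 and 32.4 in cluster 21. Necab1 ran the other way, at 38.6, 107 and 96.4 CPM, and Calb1 peaked in cluster 9 at 48.6 CPM against 26.5 and 25.8. Necab2 rose along the same order, from 3.56 to 18.1 and 29.8 CPM. Clusters were made from these nuclei, so these levels are a description.

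To compare shares of nuclei at 1 depth, each nucleus was thinned to 3000 transcripts and shallower nuclei were left out. This removed 1394 of 8597 granule nuclei and 4307 of 5445 astrocytes, so astrocyte shares at that depth are those of the deeper astrocytes. At that depth 20.0% of granule nuclei held a Calb1 transcript, against 7.54% of CA1, 11.1% of Lhx6 and 0.144% of CA3 nuclei. Calb1 in astrocytes, which should lack it, gave 0.439% at the thinned depth and 0.367% before thinning at a median of 1770 transcripts. The granule share before thinning was 34.8%, at a median of 6005 transcripts. Calb2 was held by 5.33% of Adarb2 interneurons and 4.72% of mossy nuclei, with 0.0879% in astrocytes, and by 0 of 7203 granule nuclei. That count allows up to 0.0416% of granule nuclei with a transcript at the thinned depth, and before thinning the share was 0.0349%. Pvalb was held by 6.31% of Lhx6 interneurons and by 0.176% of astrocytes.

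The other members spread wider at equal depth. Necab1 was held by 55.7% of Adarb2 and 23.6% of Lhx6 interneurons, 14.2% of CA1, 12.6% of mossy and 4.36% of granule nuclei. CA3 nuclei, at 0.793% (11 of 1388), were no higher than the deeper astrocytes, at 0.879% (10 of 1138), a share read as background. Necab2 was held by 29.1% of CA2, 15.2% of mossy and 11.5% of Adarb2 nuclei, Pcp4 by 18.9% of CA2 and 18.2% of granule nuclei, and Hpca by 36.1% of CA2, 27.1% of CA3 and 20.1% of CA1 nuclei. The astrocyte shares were 0.527% for Necab2, 0.264% for Pcp4 and 1.054% for Hpca. Hpca in Lhx6 and Adarb2 interneurons, at 1.20% and 1.29%, was near that background.

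**Figure D2:**
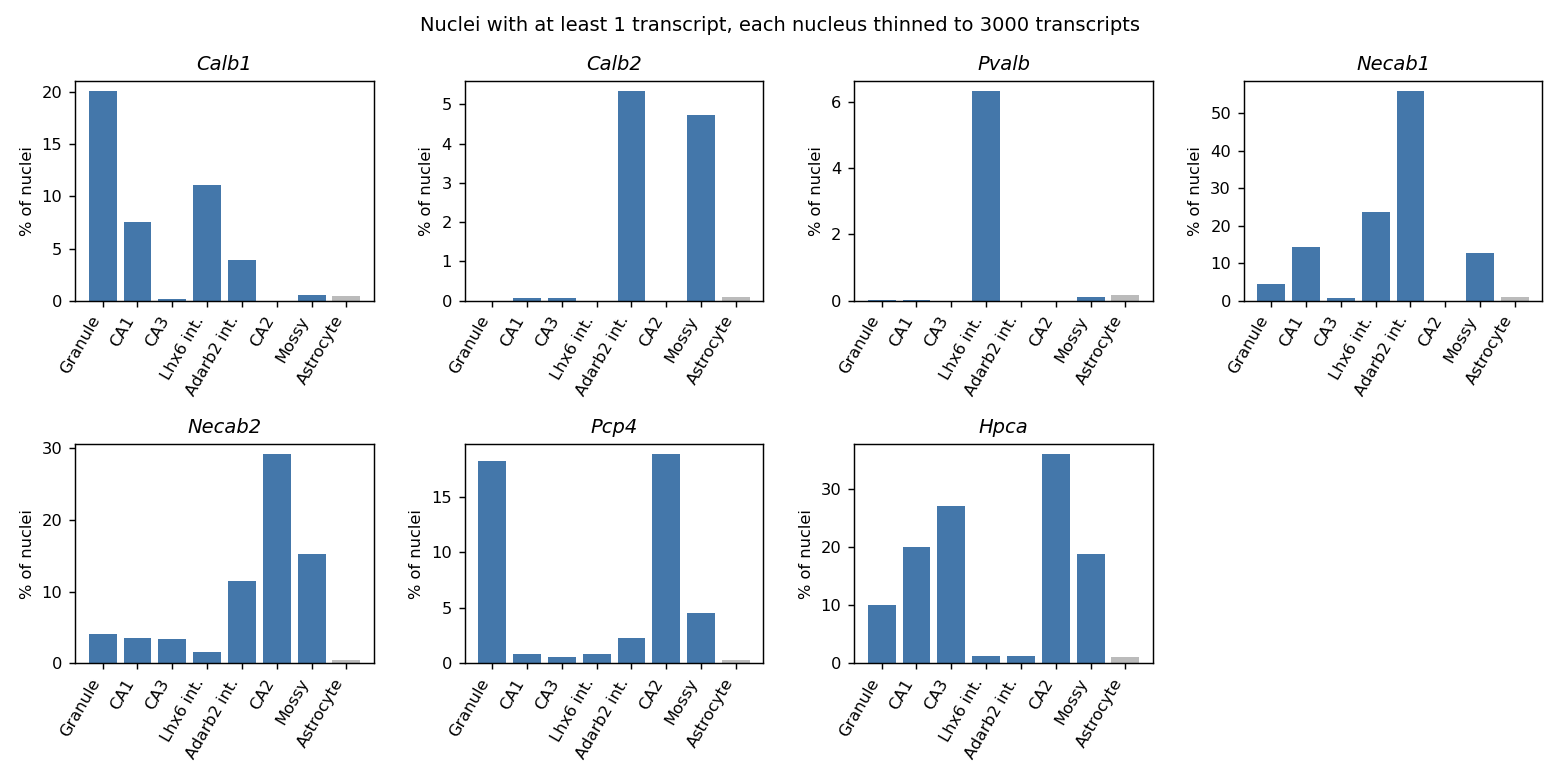
Bars give the percent of nuclei of each class with at least 1 transcript of a member after thinning each nucleus to 3000 transcripts, pooled over wells, with astrocytes in grey as background. Calb1 is held by 20.0% of granule nuclei and Necab1 by 55.7% of Adarb2 interneurons, while astrocyte bars stay at or under 1.054%.

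Whether the Arctic transgene or PMX205 moved the members was asked in granule, CA1, CA3 and interneuron nuclei with edgeR's quasi-likelihood test on counts summed per well, fitted over all genes with sex as covariate. Of the 28 pairs of a member and a class, 15 passed the filter on low counts, 5 in granule, 4 in CA1, 2 in CA3 and 4 in interneuron nuclei. Calb2 passed in none of the 4 and is taken up in mossy nuclei below. The 15 pairs gave 90 tests over 6 contrasts, and 0 passed a Benjamini-Hochberg adjusted p of 0.05 by edgeR. Unadjusted p was under 0.05 in 9 of them, or 10.0%, against 4.71% of all tests of all genes in these fits, and DESeq2 called 0, with 7 under an unadjusted 0.05. The 6 contrasts share wells, so these are not counts of independent tests. The smallest adjusted p of a member was 0.429 for Arc-veh minus WT-veh, 0.878 for Arc-PMX minus WT-PMX and 0.395 for the genotype difference averaged over treatments, all from edgeR.

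The background of called genes was low, so a count of 0 members separates them little from other genes. In granule nuclei edgeR called 0.281% of 10329 genes for Arc-veh minus WT-veh, 0.281% for Arc-PMX minus WT-PMX and 1.64% for the average of both. In CA1 nuclei it called 0.0387%, 0.00967% and 0.087% of 10340 genes, in CA3 nuclei 0.259%, 0.168% and 0.57% of 7724, and in interneurons 0%, 0% and 0.0113% of 8857. For PMX205 within WT, PMX205 within Arc and the difference between these effects it called 0% of the genes in each of the 4 classes. The 95% intervals of the members extended at most 0.61 on the log2 scale to either side of the estimate for Arc-veh minus WT-veh and 0.63 for Arc-PMX minus Arc-veh.

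Calb1, the calbindin gene, was not lower in Arc granule nuclei beyond the spread between wells. Its level in the WT-veh wells ran from 70.0 to 98.1 CPM with a median of 79.2, and in the Arc-veh wells from 64.6 to 129 with a median of 81.6. On PMX205 the WT wells ran from 59.2 to 100.4 (median 82.9) and the Arc wells from 72.2 to 99.3 (median 75.7). All 4 ranges overlapped, and the highest value belonged to an Arc-veh male. The log2 fold change was 0.10 (SE 0.14, interval -0.19 to 0.38) for Arc-veh minus WT-veh, with an adjusted p of 0.875. It was 0.00 (SE 0.14, interval -0.28 to 0.28) for Arc-PMX minus WT-PMX, with an adjusted p of 1.0. As percentages, the first interval ran from -12.3% to 30.4%. PMX205 within Arc gave -0.09 (SE 0.14), and PMX205 within WT gave 0.01 (SE 0.14).

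Calb1 differed in sign between the sexes on water. The 3 WT-veh females had 98.1, 90.4 and 70.0 CPM and the 3 Arc-veh females 86.6, 76.6 and 64.6, a log2 fold change of -0.27 (SE 0.17). The 3 WT-veh males had 70.2, 74.3 and 84.2 CPM and the 3 Arc-veh males 95.6, 129 and 71.9, a log2 fold change of 0.44 (SE 0.18). Both pairs of ranges overlapped. Fitted as 1 difference, chosen after seeing the data, males minus females gave 0.69 (SE 0.26, interval 0.16 to 1.23), with an adjusted p of 0.999 in edgeR. On PMX205 the same difference was -0.27 (SE 0.26), with an adjusted p of 0.806. Over all 10329 genes edgeR called 0% for either difference between the sexes, with 359 and 852 genes at an unadjusted p under 0.05, and DESeq2 was not run for it. Without the Arc-veh male M2, whose 644 Calb1 transcripts gave the 129 CPM, Arc-veh minus WT-veh turned to -0.06. Within cluster 0 alone it was -0.11 (SE 0.19) and within cluster 1 alone 0.03 (SE 0.16). Without the WT-veh wells F3 and M3 it was 0.07.

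**Figure D3:**
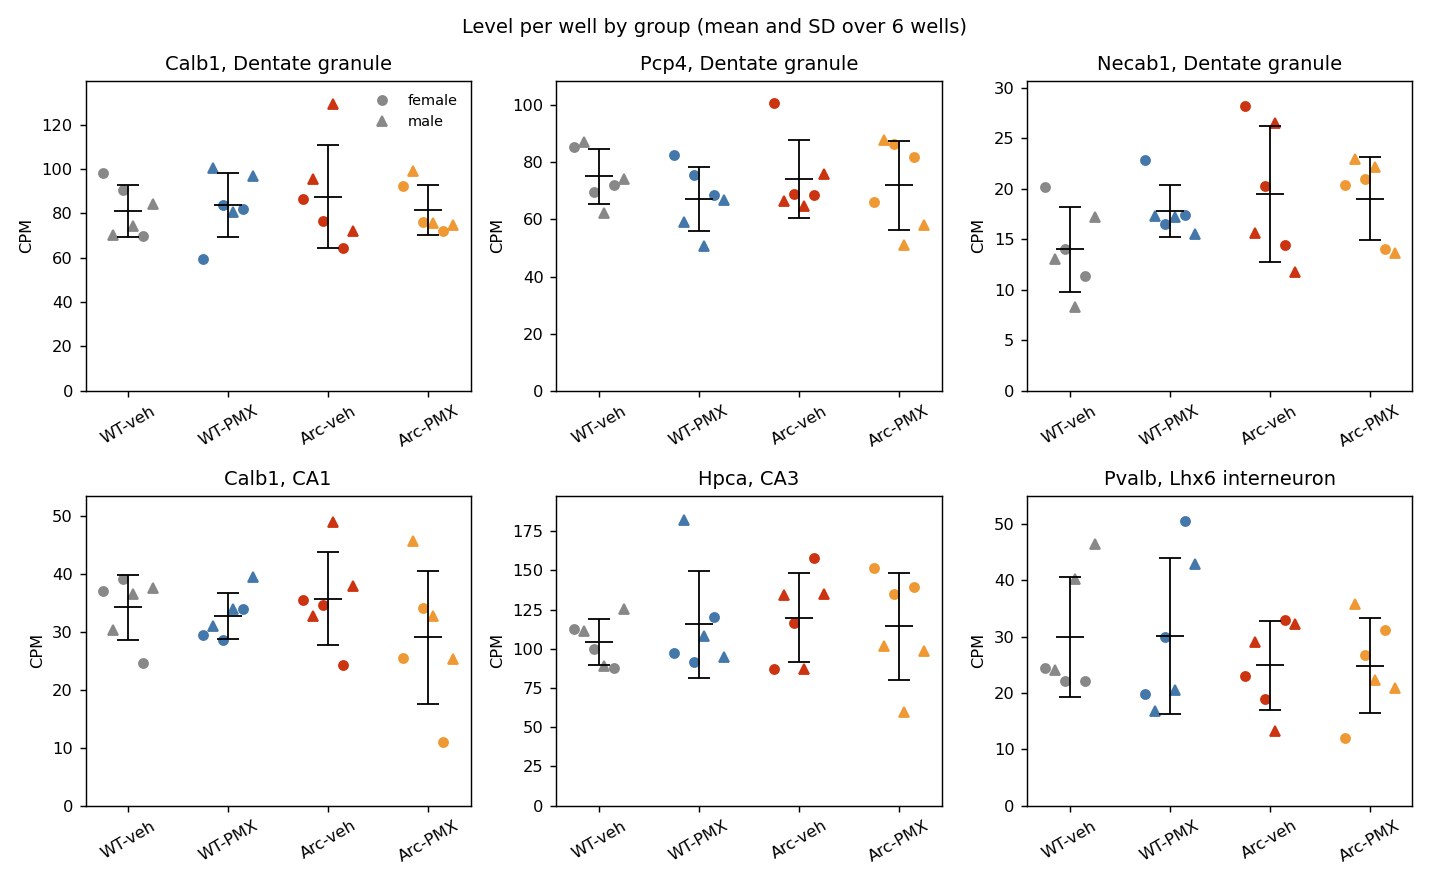
Each panel shows 1 member in 1 class as CPM per well (linear axis from 0), circles for females and triangles for males, with the mean and SD over the 6 wells of each group. The groups overlap in every panel, and the 1 Arc-veh male at 129 CPM stands above the other Calb1 values.

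Pcp4 had medians of 73.1 CPM in WT-veh, 67.5 in WT-PMX, 68.7 in Arc-veh and 74.0 in Arc-PMX, within a range over all wells of 50.6 to 101. Its log2 fold change was -0.05 (SE 0.13) for Arc-veh minus WT-veh and 0.11 (SE 0.13) for Arc-PMX minus WT-PMX. Hpca gave 0.03 (SE 0.19) and -0.11 (SE 0.19), and Necab2 gave 0.07 (SE 0.26) and -0.28 (SE 0.25). The adjusted p of each of these was 0.937 or more.

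Necab1 had the smallest adjusted p among the granule members, none of which passed. The WT-veh wells ran from 8.33 to 20.2 CPM (median 13.6) and the Arc-veh wells from 11.8 to 28.2 (median 17.9), and 3 Arc-veh wells, at 20.3, 26.5 and 28.2, lay above all WT-veh wells. The log2 fold change was 0.51 (SE 0.21) with an unadjusted p of 0.022 and an adjusted p of 0.429. On PMX205 it was 0.13 (SE 0.20), with WT wells of 15.5 to 22.8 CPM and Arc wells of 13.6 to 22.9. Averaged over treatments it was 0.32 (SE 0.15, adjusted p 0.395). In granule cluster 1 alone, where Necab1 was highest, the average was 0.04 (SE 0.17). In CA1 nuclei the Necab1 medians were 65.4 CPM in WT-veh, 65.1 in WT-PMX, 78.8 in Arc-veh and 69.1 in Arc-PMX, and the averaged log2 fold change was 0.27 (SE 0.12, unadjusted p 0.026, adjusted p 0.706).

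In CA1 nuclei Calb1 ran from 24.7 to 39.2 CPM in WT-veh, 28.6 to 39.5 in WT-PMX, 24.3 to 49.1 in Arc-veh and 10.96 to 45.7 in Arc-PMX. The Arc-PMX group held both a low and a high well, and all groups overlapped. Its log2 fold changes were 0.05 (SE 0.17) on water and -0.10 (SE 0.18) on PMX205. Hpca had medians of 70.2, 76.1, 82.6 and 76.2 CPM in the same order of groups, with log2 fold changes of 0.15 (SE 0.20) and -0.01 (SE 0.20). Necab2 gave 0.02 (SE 0.24) and -0.22 (SE 0.24).

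In CA3 nuclei Hpca, which reads out calcium in these pyramidal cells, had medians of 106 CPM in WT-veh, 103 in WT-PMX, 125 in Arc-veh and 118 in Arc-PMX. The log2 fold change was 0.20 (SE 0.18) on water and -0.07 (SE 0.18) on PMX205. Necab2 was the member with the smallest unadjusted p of all 90 tests. Its wells ran from 15.8 to 20.4 CPM in WT-veh, 13.3 to 27.2 in WT-PMX, 10.2 to 34.1 in Arc-veh and 2.23 to 22.2 in Arc-PMX. The Arc-PMX wells were the lowest as a group, with a median of 10.1 against 26.7 in Arc-veh, though their ranges overlapped. Arc-PMX minus Arc-veh gave -0.90 (SE 0.29, unadjusted p 0.0038), and the difference of the PMX205 effects between genotypes gave -1.03 (SE 0.40). Both had an adjusted p of 1.0, and they rested on 72 transcripts in the 304 Arc-PMX nuclei and 152 in the 298 Arc-veh nuclei.

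Interneurons were tested together in the main fit, and the Lhx6 cluster alone was among the alternatives. Pvalb medians in the Lhx6 subset were 24.2 CPM in WT-veh, 25.2 in WT-PMX, 26.0 in Arc-veh and 24.5 in Arc-PMX, and over all interneurons its log2 fold change was -0.22 (SE 0.30) on water and -0.14 (SE 0.31) on PMX205. Necab1 gave -0.00 (SE 0.17) and 0.09 (SE 0.17), and Necab2 gave -0.11 (SE 0.22) and 0.03 (SE 0.22). Calb1 ran from 20.9 to 38.6 CPM in WT-veh, 7.13 to 31.2 in WT-PMX, 16.6 to 64.4 in Arc-veh and 3.11 to 46.2 in Arc-PMX. Its Arc minus WT log2 fold change was 0.23 (SE 0.30) on water and 0.68 (SE 0.32, unadjusted p 0.040, adjusted p 1.0) on PMX205. When the inhibitory nuclei without Lhx6 or Adarb2 were added, after seeing the data, the PMX205 value was 0.24 (SE 0.28).

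**Figure D4:**
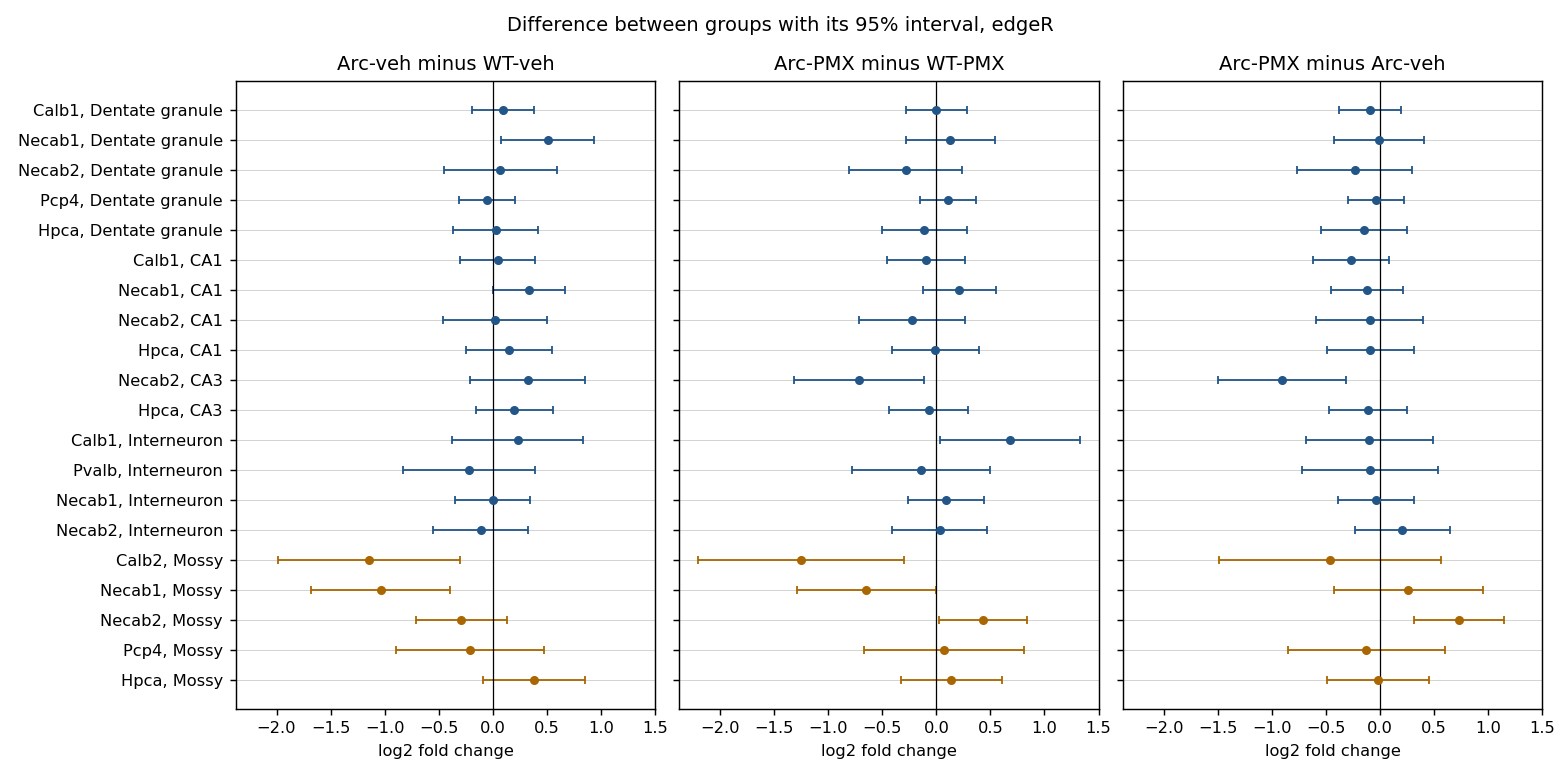
Points give the log2 fold change of each tested member and class for 3 contrasts, with 95% intervals from edgeR, in blue for the 4 classes fitted first and in brown for mossy nuclei. Most intervals include 0, and no member passed an adjusted p of 0.05.

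Mossy nuclei, the class with the highest mean Calb2 level of those present in all wells, were fitted after the values had been seen. They numbered 1032, with 13 to 69 per well. On water Calb2 ran from 8.10 to 35.1 CPM in WT wells, with a median of 23.9, and from 0 to 18.8 in Arc wells, with a median of 9.04. On PMX205 it ran from 5.90 to 31.0 in WT wells, with a median of 18.5, and from 0 to 17.1 in Arc wells, with a median of 8.20. The Arc wells reached below the WT range in both pairs and overlapped its lower part. The log2 fold change was -1.14 (SE 0.41) on water, -1.25 (SE 0.47) on PMX205 and -1.20 (SE 0.31) on average, with adjusted p of 0.694, 1.0 and 0.190. The Arc values rested on 52 and 33 Calb2 transcripts and the WT values on 116 and 75.

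On water Necab1 in mossy nuclei ran from 73.3 to 113 CPM in WT wells, with a median of 93.3, and from 19.6 to 71.5 in Arc wells, with a median of 49.3. On PMX205 it ran from 28.02 to 166 in WT wells, with a median of 84.6, and from 13.6 to 108 in Arc wells, with a median of 67.7. The lowest WT-veh well and the highest Arc-veh well lay close, at 73.3 and 71.5 CPM, while the PMX205 groups overlapped. How many of all genes keep these wells apart was not counted, so the gap has no background. In the contrast on water edgeR called 0.0142% of 7067 genes. The log2 fold change was -1.04 (SE 0.31, adjusted p 0.525) on water, -0.65 (SE 0.31, adjusted p 1.0) on PMX205 and -0.84 (SE 0.22, adjusted p 0.201) on average. Necab2, at medians of 65.7 CPM in WT-veh, 65.6 in WT-PMX, 59.9 in Arc-veh and 100.3 in Arc-PMX, gave 0.74 for Arc-PMX minus Arc-veh (SE 0.20, unadjusted p 0.0011, adjusted p 1.0). For genotype Necab2 gave -0.29 (SE 0.21) on water, 0.43 (SE 0.20, unadjusted p 0.0367, adjusted p 1.0) on PMX205 and 0.07 (SE 0.14) on average, and the PMX205 effect in Arc minus that in WT was 0.72 (SE 0.29, unadjusted p 0.0167, adjusted p 1.0). Hpca gave 0.26 (SE 0.16) and Pcp4 -0.07 (SE 0.25) for genotype on average.

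Of the 30 mossy tests of 5 members, 0 passed an adjusted p of 0.05 by edgeR, 9 were under 0.05 before adjustment, and 0 were called by DESeq2. These 9 all belonged to Calb2, Necab1 and Necab2, each in several contrasts that share wells, so they are not independent results. Over all genes tested, the share under 0.05 before adjustment was 5.49% on water, 4.39% on PMX205 and 6.54% on average for genotype, and 2.53% to 3.11% for the 3 contrasts of PMX205. The other mossy contrasts had 0.0283% of genes called for Arc-PMX minus WT-PMX, 0.212% for the average and 0% for the 3 contrasts of PMX205. Among the alternatives 7 calls appeared. Calb2 on average passed in 3 of 36 alternatives, with adjusted p from 0.00018 to 0.839 over them. Necab1 on average passed in 2 of 36, with adjusted p from 1.93e-07 to 1.0, and on water in 2 of 37, from 3.89e-05 to 1.0. Both averages passed without the well WT-PMX M1, where Calb2 fell by 1.31 (adjusted p 0.0433) and Necab1 fell by 0.96 (adjusted p 0.0162). Both also passed with that well kept when no filter on low counts was used, the setting of the smallest adjusted p above. There genes of very few transcripts entered the shared estimate of spread. The SE was 0.13 against 0.22 in the main fit for Necab1, and 0.23 against 0.31 for Calb2. Those adjusted p values came with smaller SEs than in the main fit. Whether the genes of very few transcripts made the SEs smaller was not tested. With each nucleus named by its marker score in place of its cluster, Calb2 was lower by -1.43 (adjusted p 0.0254) while Necab1 moved to -0.23 (adjusted p 0.741), so the mossy Necab1 value depended on which nuclei were called mossy.

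**Figure D5:**
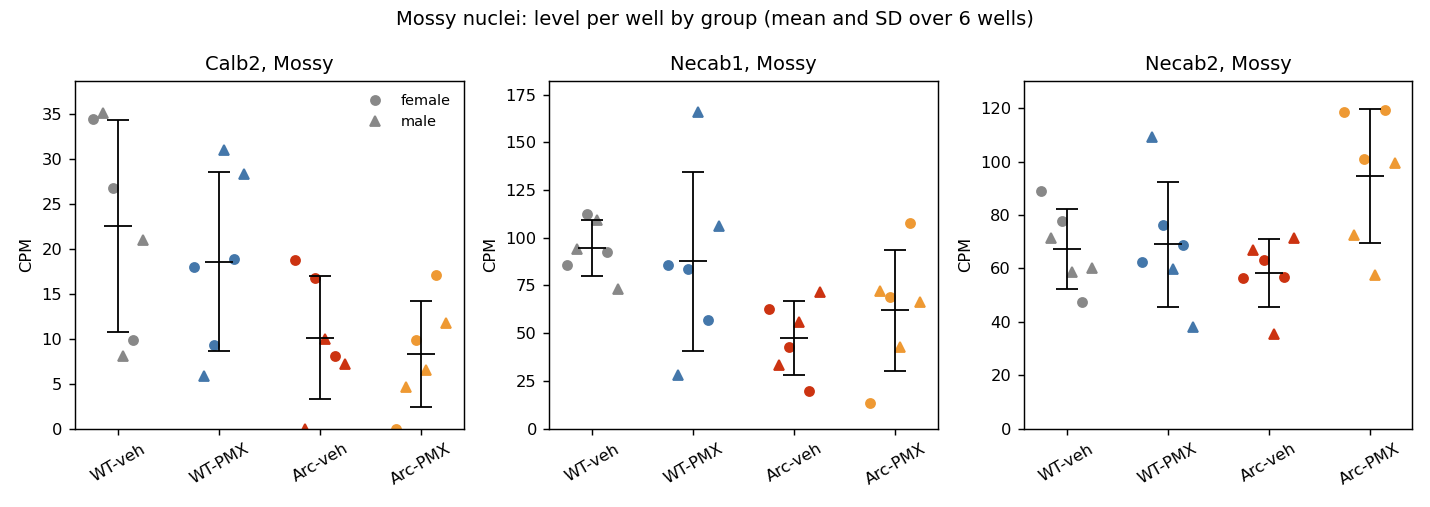
Each panel shows CPM per well in mossy nuclei (linear axis from 0) for 1 member, with circles for females, triangles for males and the mean and SD over 6 wells. For Necab1 the WT-veh wells (73.3 to 113 CPM) and the Arc-veh wells (19.6 to 71.5) nearly meet, and for Calb2 the groups overlap.

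The shares at equal depth were compared between groups by an exact permutation test over wells, 28 tests in all. Each member was tested in the class of its highest mean CPM among those found in all wells. By Benjamini-Hochberg adjustment 0 passed, and 3 had an unadjusted p under 0.05, where the smallest p that 6 against 6 wells allow is 0.00216. A single test at that p would not pass after adjustment over 28 tests, so the count of 0 carries little weight. Calb1 was held by 21.0% ± 4.21 (SD) of granule nuclei in Arc-veh and 20.0% ± 3.03 in WT-veh (exact permutation p 0.647, adjusted 0.933). Pvalb was held by 3.84% ± 1.55 of Lhx6 interneurons in Arc-veh and 8.02% ± 3.37 in WT-veh (exact permutation p 0.026, adjusted 0.303), and by 4.77% ± 3.64 in Arc-PMX and 7.77% ± 4.74 in WT-PMX (exact permutation p 0.26). Pvalb ranges over wells were 1.92% to 6.15% in Arc-veh and 3.85% to 11.9% in WT-veh, and they overlapped. By CPM, which weights deep nuclei more, the Lhx6 medians of Pvalb were higher in Arc-veh than in WT-veh and lower in Arc-PMX than in WT-PMX, as given above. The fitted log2 fold changes of Pvalb over all interneurons, also given above, were negative in both pairs. They are not matched to the shares, since that fit also takes in nuclei outside the Lhx6 cluster. The part of the interneurons in that cluster differed between wells, with 33 of 75 in Arc-veh F3 and 82 of 134 in Arc-veh M1. Calb2 was held by 2.06% ± 1.73 of mossy nuclei in Arc-PMX and 4.98% ± 2.50 in WT-PMX (exact permutation p 0.0238, adjusted 0.303), and by 2.13% ± 1.74 in Arc-veh and 6.87% ± 5.11 in WT-veh (exact permutation p 0.0541). Necab2 was held by 10.8% ± 3.30 of mossy nuclei in Arc-veh and 16.5% ± 5.04 in WT-veh (exact permutation p 0.0433, adjusted 0.303), and by 17.0% ± 7.92 in Arc-PMX and 18.2% ± 5.95 in WT-PMX (exact permutation p 0.766). The mean shares of the PMX205 pair thus ran the other way than the fitted CPM of Necab2. The median shares, 19.9% in Arc-PMX and 17.2% in WT-PMX, ran the same way, and the lowest Arc-PMX well was at 3.85%.

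Around the members, 62 other genes were followed in 6 lists, 5 of calcium handling and 1 of 10 granule cell genes that seizures are known to move, and of the 62 50 were tested in granule, 54 in CA1, 46 in CA3 and 48 in interneuron nuclei. The lists and the contrasts drew on the same wells as the members. In the averaged genotype contrast edgeR called 4 list genes in granule nuclei, 0 in CA1, 1 in CA3 and 0 in interneurons, and none in any other contrast. Of all genes tested in that contrast, 1.64% were called in granule nuclei, 0.087% in CA1, 0.57% in CA3 and 0.0113% in interneurons. Of 19 tested EF-hand sensors and related proteins in granule nuclei 1 was lower, Kcnip2, a potassium channel subunit, at -0.34 (SE 0.09, adjusted p 0.0451). It ran from 72.2 to 143 CPM in Arc wells and from 102 to 174 in WT wells. The median of that list was -0.10, against 0.00 for all genes.

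Of 9 calmodulin-dependent enzymes in granule nuclei 1 was higher and 1 lower. Camk2d, a subunit of calmodulin kinase II, was higher by 0.45 (SE 0.10, adjusted p 0.0142), with 54.4 to 94.4 CPM in Arc and 41.1 to 77.0 in WT wells. Camk4, a nuclear calmodulin kinase, was lower at -0.48 (SE 0.12, adjusted p 0.0315), with 20.2 to 42.6 against 35.0 to 58.2 CPM. Of 9 calcium extrusion genes 1 was higher, Slc24a3, a sodium, calcium and potassium exchanger, by 0.26 (SE 0.07, adjusted p 0.0306). Of 9 tested calcium store genes in CA3 nuclei 1 was lower, Itpr2, an inositol trisphosphate receptor, at -0.81 (SE 0.19, adjusted p 0.0339). The Arc and WT ranges of these genes overlapped. Of the 3 listed calmodulin binders with an IQ motif and the 10 listed seizure genes, 1 and 3 were tested in granule nuclei and none was called, with medians of -0.28 and -0.16.

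Over the 24 wells, the genes whose log2 CPM in granule nuclei ran most like Calb1 among 4278 compared were Spred1 (Pearson's r 0.68), Kpna4 (0.67) and Kdm3b (0.64), and those least like it were Abl1 (-0.71), Anp32a (-0.61) and Ksr1 (-0.61). Pcp4 in the same nuclei ran most like Chrm1 (0.74), Jakmip1 (0.73) and Macf1 (0.72). Hpca in CA3 nuclei ran most like Zmiz2 (0.84), Nfasc (0.80) and Kmt2d (0.80), and Necab2 in mossy nuclei most like Nfasc (0.81), Fmnl1 (0.78) and Plch2 (0.77). For Necab1 in Adarb2 interneurons the leading genes were Csmd3 (0.81), Kcnn2 (0.81) and Cdc14b (0.74). For Calb2 in mossy nuclei they were Lrrtm3 (0.84), Cntn5 (0.82) and Magi1 (0.82), and for Pvalb in Lhx6 interneurons Zfand3 (0.76), A930015D03Rik (0.74) and Slc2a3 (0.71). The wells share their pool and differ in depth, and Calb2 rested on 0 to 41 transcripts per well, so these are descriptions.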

How the data were processed

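Per the labels and the study's methods, reads were demultiplexed (bcl2fastq is named in the submitters' processing notes) and aligned to mm10 with the Parse split-pipe pipeline. The authors deposited, for each of 7 sublibraries, a matrix of raw transcript counts per gene and barcode, with a table giving each barcode's well. Only the 24 nucleus wells were analysed here. The members and all gene lists were chosen with earlier results of these data known.

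Nuclei with 300 to 50000 transcripts, at least 400 genes and at most 1% mitochondrial transcripts were kept. Doublets (score over 0.25) were removed and 43885 nuclei clustered with scanpy 1.11.5 and leidenalg 0.10.2 (Python 3.11.15; 2000 variable genes, 30 principal components, 15 neighbours, resolution 1.5), leaving 69 member and list genes out. Clusters were named from listed markers. Counts were summed per well and class, using wells with at least 10 nuclei, and tested with edgeR 4.0.16 (R 4.3.3; quasi-likelihood test, TMM, filterByExpr, 4 groups with sex as covariate) at a Benjamini-Hochberg adjusted p of 0.05. DESeq2 1.42.0, other filters, scalings and namings, each sex alone and each well left out were the alternatives. The scripts were tested on simulated data. Granule wells summed 927456 to 6384837 transcripts and mossy wells 175895 to 1700013, so precision is lowest for the mossy values; limits from counts of 0 (3 counts) cover counting error only. The mossy fit, the fits per granule cluster, the difference between the sexes and the wider interneuron class were added after seeing the data.

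All 7 members were described in every neuronal class, those of low level in part by a shared upper bound. Of the lists, the 3 called genes with the smallest adjusted p per list, class and genotype contrast were named. Likeness was the Pearson r of log2 CPM over 24 wells, among genes with a mean log2 CPM of at least 5. It was taken in the class of the member's highest mean CPM among those present in all wells.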

Additional observations from a re-analysis of the deposited data

Results flagged for a closer look

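Of 80 sets of 6 wells, a member in a class and group, 4 held a well that stood apart from the rest by more than 0.625 of the range, where chance gives about 1 in 20. Necab1 in granule nuclei of WT-PMX well F1 was at 22.8 CPM, against 17.4 in the nearest well. Pcp4 in granule nuclei of Arc-veh well F1 was at 100.7 CPM, against 75.9 in the nearest. Hpca in CA3 nuclei of WT-PMX well M1 was at 182 CPM, against 120.0 in the nearest, from 316 transcripts in 59 nuclei. Pcp4 in mossy nuclei of WT-veh well M3 was at 28.8 CPM, against 16.4 in the nearest, from 11 transcripts in 49 nuclei.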

How the results depend on the processing

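Over 42 alternatives, 24 of them leaving out 1 well each, no member was called in granule, CA1, CA3 or interneuron nuclei, and since no member was called at the outset, no call could reverse. Values that were not called did change sign, among them Calb1, on which 39 alternatives bear. Calb1 in granule nuclei, Arc-veh minus WT-veh, moved from 0.10 to -0.27 in females alone, 0.44 in males alone and -0.11 in granule cluster 0, an alternative chosen after seeing the data, and ranged from -0.062 (without Arc-veh well M2) to 0.18 with 1 well left out. Arc-PMX minus WT-PMX moved to 0.15 in females alone, -0.12 in males alone and -0.13 in granule cluster 1, and ranged from -0.08 to 0.05 with 1 well left out. Well numbers were not taken to pair the wells, by a rule that asked every same-number pair to correlate above 0.1. That rule does not decide whether wells of the same number share an effect. Over 36 same-number pairs the median correlation of deviations was 0.19 (-0.31 to 0.67), against -0.03 for other numbers. Of these pairs 24 were over 0.1, and 11 of 24 wells correlated best with their own number. With the replicate block Calb1 was 0.10 and -0.01, and 0 members were called (smallest adjusted p 0.314). The 7 mossy calls came from no filter on low counts (3), leaving out WT-PMX well M1 (2), at least 30 nuclei per well (1) and naming by marker score (1); their cause was not tested. Depth limits Calb2, with 0 to 41 transcripts per mossy well.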

Other observations

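A cluster of 184 nuclei that stayed unnamed, with 10 or more nuclei in 8 wells, held Calb2 at 228 ± 52.4 CPM (SD over 8 wells, range 138 to 291), Pcp4 at 428 ± 97.9 CPM and Calb1 at 79.9 ± 27.5 CPM. Necab1 was at 65.6 ± 47.6 CPM there, Hpca at 1.68 CPM and Pvalb at 0 in all 8 wells.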
